A study of Mus musculus with 18 samples.

Results

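The genes of glycolysis and of the transcription factor HIF1 were followed through 18 RNA-seq libraries of mouse macrophages. They are the 32 genes whose symbols stand on a list of glucose transporters, glycolytic enzymes, HIF1 pathway members and HIF1 target genes, out of 43309 genes in the deposited table. The list was drawn up by function, with earlier results of these data known. Glycolysis splits glucose into pyruvate and, with lactate as the end product, yields ATP without oxygen. HIF1 is a dimer whose alpha subunit, the product of Hif1a, is hydroxylated by the prolyl hydroxylases encoded by Egln genes and then degraded when oxygen is plentiful. The stabilized dimer raises transcription of most glycolytic genes and of genes such as Vegfa and Bnip3, and macrophages activated with LPS are known for a strong glycolytic flux.

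The cells were bone marrow-derived macrophages of C57BL/6 mice, differentiated for 7 days with 10 ng/ml M-CSF in 10% serum. They came from mice with a knockout of 14-3-3ε (gene Ywhae) that the labels call myeloid, from mice with a knockout of PGRN (progranulin, gene Grn) and from wild-type (WT) mice. Cells of each genotype were driven for 18 h to an M1 state with 100 ng/ml LPS and 20 ng/ml IFNγ (interferon gamma), and to an M2 state by 20 ng/ml of IL-4. The 6 groups, each with 3 libraries, are thus 14-3-3ε KO M1, PGRN KO M1, WT M1, 14-3-3ε KO M2, PGRN KO M2 and WT M2. The promoter that restricts the 14-3-3ε knockout to myeloid cells, the age and sex of the mice and the number of mice behind the libraries are not given in the sources used here. The p-values therefore measure only the spread between these libraries, which may be technical.

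Recovered depth ran between 5157638 and 105315616 reads per library, so that 1 read was worth between 0.202 and 4.46 normalized counts. The 32 genes together took between 0.912% and 1.28% of the reads of a library. All 32 had reads in all 18 libraries and all passed the filter on low values. The lowest value was 9 reads, for Aldoc. Grn was at 212 to 497 normalized counts in PGRN KO M1, against 81989 to 91739 in WT M1, and Ywhae was at 5191 to 6214 in 14-3-3ε KO M1, against 9021 to 9859 in WT M1. The loss of Ywhae RNA was thus only partial, and which cells its remaining reads came from was not tested. Reads on ribosomal RNA-like genes made up 5.50% in WT M2 replicate 3 and 0.733% in WT M1 replicate 2, against at most 0.0260% elsewhere. Without these 2 libraries the counts below moved by at most 2 genes in each comparison. The 7 M1 markers (such as Nos2, Il1b and Tnf) summed to between 15266 and 26394 normalized counts in the M1 libraries, against 143 to 304 in the M2 libraries. The 6 M2 markers (such as Arg1, Mrc1 and Retnla) summed to at most 3924 in M1 libraries, against at least 100273 in M2 libraries.

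The 8 macrophage markers were all present, but the libraries also held 11 stromal markers at high levels, with Col1a1 between 64769.9 and 194188 normalized counts in every library and none of the 11 at 0. Their sum varied with genotype and polarization. It was 660778 to 798636 in 14-3-3ε KO M1, 318099 to 366326 in PGRN KO M1 and 392297 to 639114 in WT M1, and in M2 it was 509824 to 646314, 257615 to 318823 and 404007 to 521947 in the same order of genotypes. The summed macrophage markers took the opposite order of genotypes, with 186360 to 262438 in 14-3-3ε KO M1, 454545 to 548260 in PGRN KO M1 and 266022 to 442741 in WT M1. Much of that sum was Lyz2, at 32601 to 123842, 305368.5 to 359805.5 and 172932 to 299713 in the same order. Single markers differed: Adgre1 had 59781 to 69286, 40285 to 62015 and 24891 to 48610. No sum without Lyz2 was taken, so the opposite order is shown only for the sum that includes it. In M1, 1 of the 8 was higher and 4 lower in 14-3-3ε KO over WT cells. In PGRN KO over WT cells, 4 were higher and 0 lower. In M1 over M2, 5 of the 11 stromal markers rose and 1 fell in 14-3-3ε KO, 3 rose and 1 fell in PGRN KO, and 5 rose and 1 fell in WT cells. Of the 8 macrophage markers, 6 rose and 1 fell, 5 rose and 0 fell, and 6 rose and 0 fell in the same order. In such bulk samples, fewer cells of a type and less RNA per cell cannot be told apart. A refit with the log2 stromal sum as a covariate, chosen after the data were seen, is given with each comparison. Between genotypes of the same polarization, the stromal sums overlapped only for 14-3-3ε KO and WT cells in M2. Those of 14-3-3ε KO M1 and M2 did not overlap either. Without overlap the refit cannot tell the groups from their stromal content, and a call lost or gained with it has no single reading.

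Levels spanned a wide range within the pathway. Per kb of transcript and averaged over the 18 libraries, the most abundant of the 32 genes were Pkm (pyruvate kinase) at 19998 normalized counts per kb, Aldoa (aldolase A) at 19607, Ldha (lactate dehydrogenase A) at 13111 and Eno1 (enolase 1) at 10802. Pgam1, Gapdh, Pgk1 and Tpi1 followed with 6806, 6288, 6248 and 5871. The regulated entry steps lay lower, with Pfkl (liver-type phosphofructokinase) at 1258, Slc2a1 (the glucose transporter GLUT1) at 558 and Pfkfb3, which makes the phosphofructokinase activator fructose 2,6-bisphosphate, at 516. The scarcest were Ankrd37 at 58.0, Eno2 at 55.2, Slc2a3 at 53.6 and Aldoc at 32.1.

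M1 cells were compared with M2 cells within each genotype. Of the 32 genes, 13 were higher in M1 in all 3 genotypes: Hk1, Hk3, Pfkl, Pfkm, Pfkfb3, Aldoa, Tpi1, Pkm, Slc16a3, Vegfa, Bnip3, P4ha1 and P4ha2. Only Pfkp and Pfkfb4 were lower in M1 in all 3. The share of all genes called in all 3 genotypes was not counted. In 14-3-3ε KO cells 22 rose and 4 fell, in PGRN KO cells 13 rose and 8 fell, and in WT cells 14 rose and 2 fell, by limma with an adjusted p (Benjamini-Hochberg over all genes) below 0.05. Of all 21336 genes tested, 30.0%, 37.5% and 38.9% passed in the same 3 comparisons, split into higher and lower ones as 15.6% and 14.4% in 14-3-3ε KO, 18.0% and 19.5% in PGRN KO and 18.9% and 20.0% in WT cells. M1 and M2 libraries did not overlap for 29, 26 and 17 of the 32 genes in these genotypes, beside 49.3%, 51.3% and 40.2% of all genes. The median log2 fold change of the 32 genes was 0.48 in 14-3-3ε KO, 0.07 in PGRN KO and 0.23 in WT cells, beside 0.03, -0.04 and -0.04 over all genes.

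**Figure D1:**
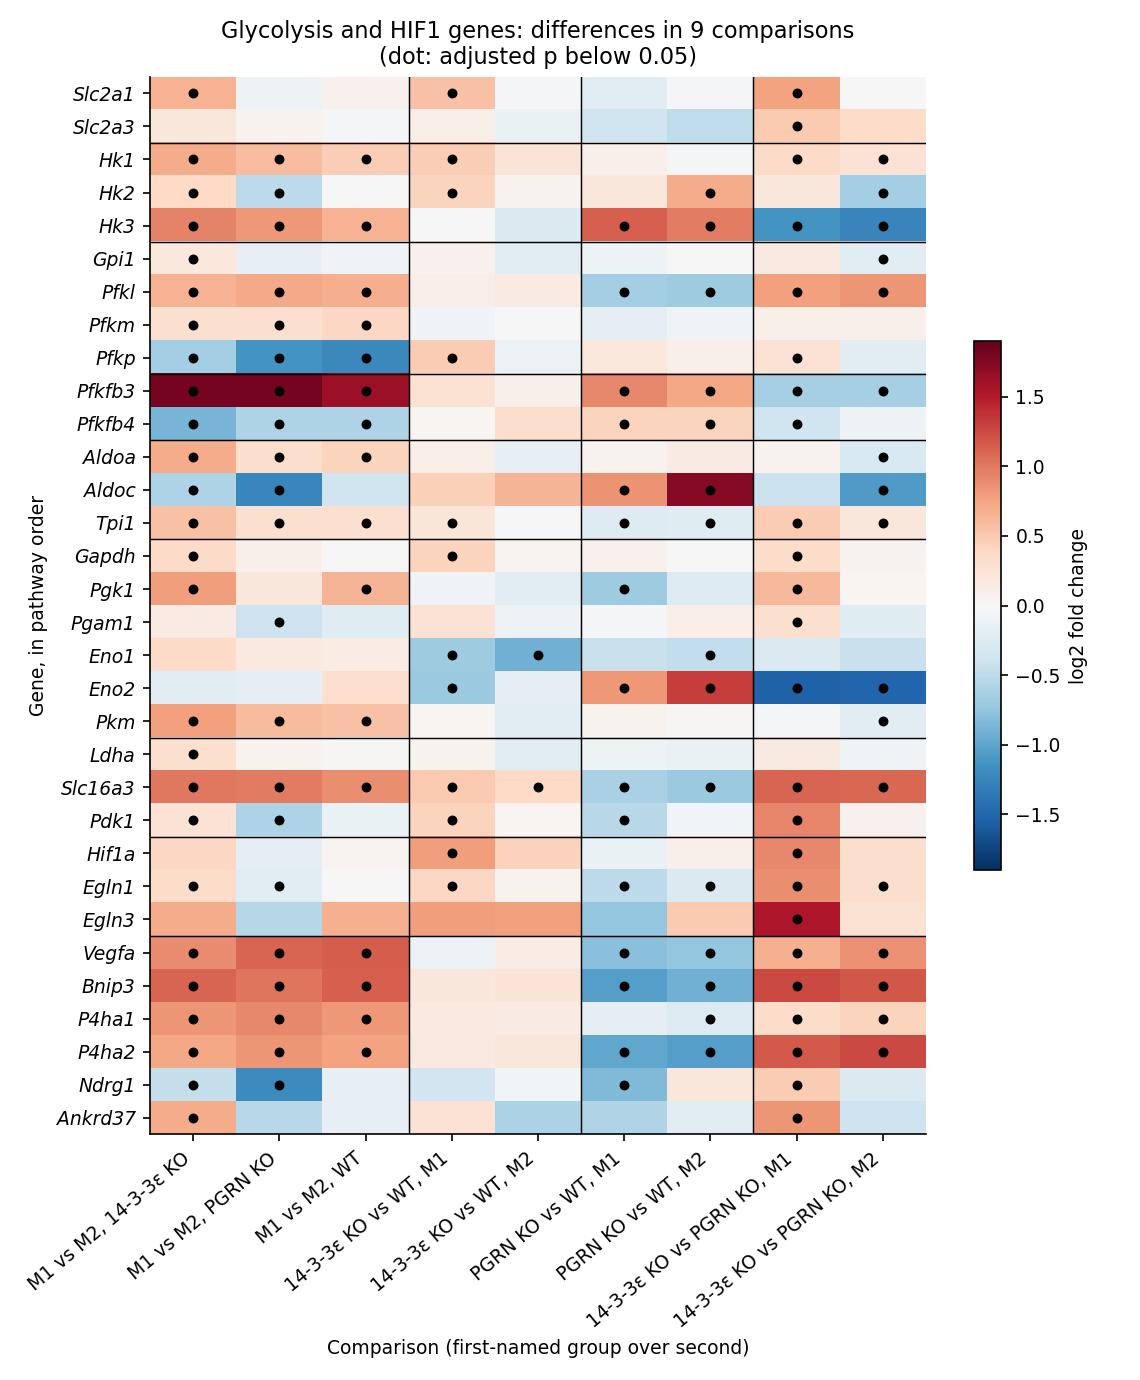
Heat map of the log2 fold change of each of the 32 genes (down, in pathway order) in 9 comparisons (across, first-named group over the second), with red for higher and blue for lower in the first-named group and a dot where the adjusted p is below 0.05. The red block of Vegfa, Bnip3, P4ha1 and P4ha2 in the 3 M1 columns, the blue cells of Bnip3 and P4ha2 in the PGRN KO columns and the few dots of 14-3-3ε KO in M2 (2 of 32) stand out.

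At the entry of the pathway, Hk1 and Hk3, which encode hexokinases that trap glucose as glucose 6-phosphate, rose in M1. Hk3 had 7926, 9649.9 and 8370.1 normalized counts in 14-3-3ε KO M1 libraries, against 4547, 4408 and 4538 in 14-3-3ε KO M2 libraries. It had 20042, 17936 and 19081 in PGRN KO M1 against 11680.5, 9172 and 11411 in PGRN KO M2, and 9355, 7506 and 9149.5 in WT M1 against 5255, 4868 and 6411 in WT M2. The M1 and M2 libraries did not overlap in any genotype, and the log2 fold changes were 0.94 ± 0.12, 0.83 ± 0.12 and 0.66 ± 0.12 in 14-3-3ε KO, PGRN KO and WT cells (adjusted p = 6.95e-06, 2.16e-05 and 0.000228). Slc2a1 rose in 14-3-3ε KO cells, by 0.66 ± 0.08 (adjusted p = 4.74e-06), while its log2 fold changes of -0.10 ± 0.08 in PGRN KO and 0.08 ± 0.08 in WT cells did not pass. Hk2, the inducible hexokinase, rose in 14-3-3ε KO cells (0.38 ± 0.13, adjusted p = 0.0379), fell in PGRN KO cells (-0.49 ± 0.13, adjusted p = 0.00635) and stood at 0.01 ± 0.13 in WT cells.

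At the phosphofructokinase step, Pfkfb3 and Pfkl rose and Pfkfb4 and Pfkp fell in M1 in all 3 genotypes. Pfkfb3 had 2966, 3794 and 3505 normalized counts in 14-3-3ε KO M1, against 966, 939 and 983 in 14-3-3ε KO M2. Its values were 5188, 5159.5 and 5418 in PGRN KO M1 against 1469.5, 1438 and 1566 in PGRN KO M2. WT M1 libraries had 2221, 3351 and 2905, against 802, 948 and 954 in WT M2. Every M1 library thus lay above every M2 library, with fold changes of 3.53, 3.52 and 3.10 in 14-3-3ε KO, PGRN KO and WT cells, the largest rise of the 32 genes in each genotype. Its paralog Pfkfb4 went the other way, with log2 fold changes of -0.88 ± 0.11, -0.59 ± 0.11 and -0.58 ± 0.11 (adjusted p at most 0.000390). Among the phosphofructokinase subunits themselves, Pfkl rose by 0.66 ± 0.10, 0.72 ± 0.10 and 0.69 ± 0.10, whereas the platelet-type Pfkp fell.

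Pfkp had 1309.5, 1481 and 1396 normalized counts in 14-3-3ε KO M1 against 2171, 2368 and 2037 in 14-3-3ε KO M2, 1136, 1130.5 and 1192 in PGRN KO M1 against 2680.2, 2331 and 2573 in PGRN KO M2, and 989.9, 1073 and 948 in WT M1 against 2389.5, 2336 and 2352 in WT M2. All M1 libraries lay below all M2 libraries, with log2 fold changes of -0.65 ± 0.08, -1.13 ± 0.08 and -1.23 ± 0.08 and adjusted p of at most 3.52e-06. Exons of Pfkp share 748 bases with those of Pitrm1 on the opposite strand, and no source used here says whether the counting used strand. Reads of these 2 genes can therefore not be told apart over those bases.

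In the lower part of the pathway, Pkm and Aldoa rose in M1 in all 3 genotypes. Pkm rose by 0.78 ± 0.07 in 14-3-3ε KO, 0.60 ± 0.07 in PGRN KO and 0.56 ± 0.07 in WT cells, and Aldoa rose by 0.70 ± 0.07, 0.34 ± 0.07 and 0.42 ± 0.07 in the same order. Ldha, which turns pyruvate into lactate, passed in 14-3-3ε KO cells with 0.30 ± 0.09 (adjusted p = 0.0135) and stood at 0.06 ± 0.09 in PGRN KO and 0.02 ± 0.09 in WT cells. Slc16a3, the lactate exporter MCT4, rose in M1, with 4298 ± 657 normalized counts in 14-3-3ε KO M1 against 2136 ± 224 in 14-3-3ε KO M2, 1982 ± 85.6 in PGRN KO M1 against 999 ± 35.8 in PGRN KO M2, and 3036 ± 206 in WT M1 against 1637 ± 163 in WT M2 (SD, n = 3 each). Pdk1, which inhibits pyruvate dehydrogenase, rose in 14-3-3ε KO cells (0.27 ± 0.09, adjusted p = 0.0390), fell in PGRN KO cells (-0.59 ± 0.09, adjusted p = 7.90e-05) and stood at -0.12 ± 0.09 in WT cells. Against WT, the M1 over M2 difference of Pdk1 did not pass as different in PGRN KO cells (-0.46 ± 0.13, adjusted p = 0.107) or in 14-3-3ε KO cells (0.39 ± 0.13, adjusted p = 0.293). The PGRN KO difference passed with the stromal sum as a covariate, at -0.48 ± 0.12 (adjusted p = 0.0418).

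Pgk1 had 15147 ± 489 normalized counts in 14-3-3ε KO M1 against 8783 ± 529 in 14-3-3ε KO M2, 9904 ± 1066 in PGRN KO M1 against 8555 ± 622 in PGRN KO M2, and 15850.3 ± 2144 in WT M1 against 10178 ± 1649.6 in WT M2. It rose in 14-3-3ε KO (0.79 ± 0.12, adjusted p = 5.67e-05) and WT cells (0.64 ± 0.12, adjusted p = 0.000326), while PGRN KO libraries overlapped. Summed with its near-identical copies it also passed in PGRN KO cells (0.22 ± 0.07, adjusted p = 0.0263). Pgam1, the phosphoglycerate mutase, fell in PGRN KO cells (-0.39 ± 0.11, adjusted p = 0.00942) and stood at 0.15 ± 0.11 in 14-3-3ε KO and -0.23 ± 0.11 in WT cells. Summed with copies that took between 0.908% and 28.1% of its counts, it was lower in M1 also in WT cells (-0.38 ± 0.08, adjusted p = 0.000642). The neuronal glucose transporter Slc2a3 had 247 ± 7.31 in 14-3-3ε KO M1 against 214 ± 3.21 in 14-3-3ε KO M2 and did not pass in any genotype. Neither did Egln3 and Eno1 as counted, but Eno1 summed with its near-identical copies passed as higher in 14-3-3ε KO cells (0.28 ± 0.08, adjusted p = 0.0134).

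Of the HIF1 arm, Hif1a itself did not pass in any genotype, with log2 fold changes of 0.40 ± 0.19, -0.18 ± 0.19 and 0.05 ± 0.19 in 14-3-3ε KO, PGRN KO and WT cells. The target genes Vegfa (the angiogenic growth factor), Bnip3 (a mitophagy receptor) and P4ha1 and P4ha2 (alpha subunits of the collagen prolyl 4-hydroxylase) rose in all 3. For Vegfa, the values were 3501, 3984 and 4268 normalized counts in 14-3-3ε KO M1 against 2021, 2095 and 2159 in 14-3-3ε KO M2, 2351, 2931 and 2119.7 in PGRN KO M1 against 1028, 1308 and 1104 in PGRN KO M2, and 4348, 4579.7 and 3755 in WT M1 against 1941, 2041 and 1713 in WT M2. The M1 libraries of a genotype were all above its M2 libraries, with log2 fold changes of 0.90 ± 0.12, 1.10 ± 0.12 and 1.15 ± 0.12. Not every target moved this way. Ndrg1, a stress-responsive gene, fell in 14-3-3ε KO cells (-0.46 ± 0.16, adjusted p = 0.0362) and in PGRN KO cells (-1.21 ± 0.16, adjusted p = 8.59e-06) and stood at -0.15 ± 0.16 in WT cells.

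The balance of rises and falls in M1 over M2 cells depended on the scaling. With library totals, falls outnumbered rises among the 32 genes only in PGRN KO cells. Scaled by library totals, the median of all genes moved to -0.16 in 14-3-3ε KO, -0.22 in PGRN KO and -0.20 in WT cells, and 29.9%, 30.0% and 34.2% of all calls were rises, beside 52.0%, 48.1% and 48.5% with the deposited scaling. The 32 genes then gave 14 rises and 4 falls in 14-3-3ε KO, 10 and 11 in PGRN KO, and 12 and 6 in WT cells, and Gpi1 changed sign in 14-3-3ε KO cells. Of the 13 genes higher in all 3 genotypes, Pfkm lost its call in each genotype, Tpi1 in PGRN KO and WT cells, and Aldoa in PGRN KO cells. The other 10 remained higher in all 3. In 14-3-3ε KO cells Hk2, Gapdh, Ldha, Pdk1, Egln1 and Ankrd37 also lost their calls.

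With the stromal sum as a covariate, 21 of the 26 calls remained in 14-3-3ε KO, 20 of 21 in PGRN KO and 16 of 16 in WT cells. Pfkm lost its call in both knockouts, and Hk2, Aldoc, Pdk1 and Ankrd37 lost theirs in 14-3-3ε KO cells. Eno1 passed as higher in 14-3-3ε KO cells, at 0.52 ± 0.17 (adjusted p = 0.0250), and Hif1a as lower in PGRN KO cells, at -0.41 ± 0.13 (adjusted p = 0.0185).

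PGRN KO cells were next compared with WT cells in each polarization. In both M1 and M2, Hk3, Pfkfb3, Pfkfb4, Aldoc and Eno2 were higher in PGRN KO cells, and Pfkl, Tpi1, Slc16a3, Egln1, Vegfa, Bnip3 and P4ha2 were lower. The share of all genes called in both polarizations was not counted. In M1, 5 of the 32 genes rose and 10 fell, beside 25.3% of all genes past the threshold, 14.2% of all genes higher and 11.1% lower. In M2, 6 rose and 9 fell, beside 19.4% of all genes, with 11.1% higher and 8.3% lower. PGRN KO and WT libraries did not overlap for 22 of the 32 genes in M1 and 16 in M2, beside 31.8% and 39.1% of all genes. The median log2 fold change of the 32 genes was -0.18 in M1 and -0.04 in M2, beside 0.01 and 0.00 over all genes. Scaled by library totals, the genes gave 4 rises and 13 falls in M1 and 6 and 9 in M2, while rises made up 39.4% and 47.3% of all calls, against 56.3% and 57.2% with the deposited scaling.

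**Figure D2:**
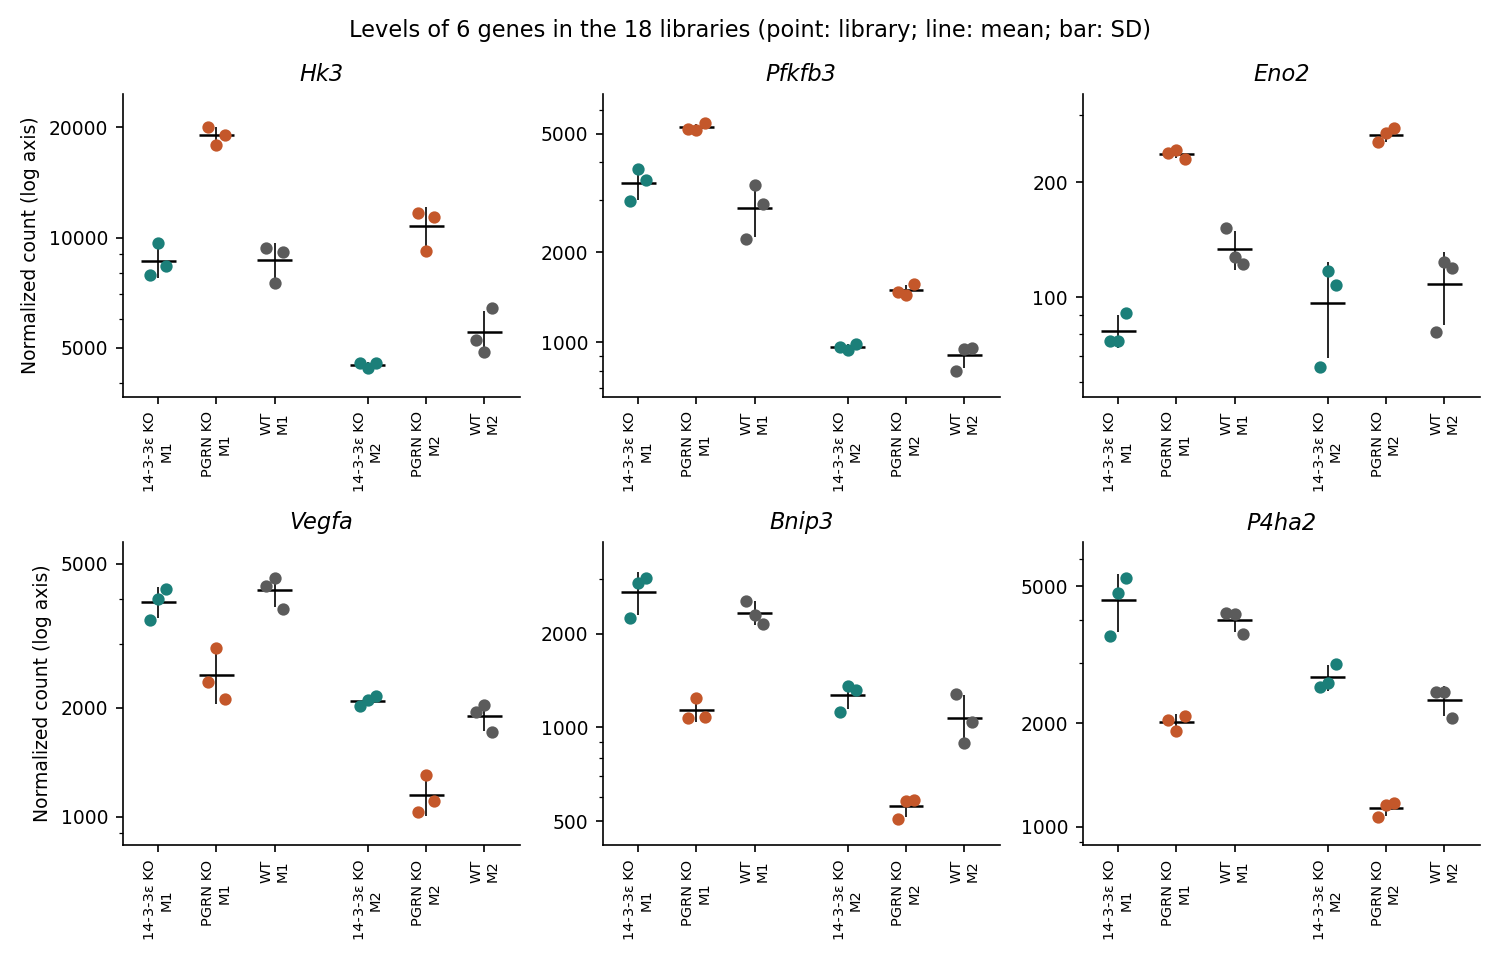
Normalized counts (log axis) of 6 genes in the 18 libraries, by genotype and polarization, with a point for each library, a line for the mean and a bar for the SD of 3 libraries. PGRN KO libraries lie above the WT and 14-3-3ε KO libraries of the same polarization for Hk3, Pfkfb3 and Eno2 and below them for Vegfa, Bnip3 and P4ha2.

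Hk3, the most abundant hexokinase here, had 20042, 17936 and 19081 normalized counts in PGRN KO M1 libraries, against 9355, 7506 and 9149.5 in WT M1 libraries. The lowest PGRN KO library was above the highest WT library in M1 and also in M2, and the log2 fold changes were 1.14 ± 0.12 (adjusted p = 5.26e-06) in M1 and 0.97 ± 0.12 (adjusted p = 2.70e-05) in M2. Pfkfb3 rose as well, to M1 and M2 log2 fold changes of 0.92 ± 0.12 and 0.73 ± 0.12 (adjusted p = 4.91e-05 and 0.000485). Hk2 passed in M2 but not in M1, with 1768, 1659.5 and 1699.7 normalized counts in PGRN KO M2 against 907, 1066 and 1176 in WT M2 (0.71 ± 0.13, adjusted p = 0.00108). In M1 its log2 fold change was 0.21 ± 0.13, and the difference between the effects in M1 and M2 did not pass (-0.50 ± 0.18, adjusted p = 0.230). Pfkl, in contrast, was lower, with 3999.7, 4154 and 3994 in PGRN KO M1 against 7482, 5999.5 and 5681 in WT M1 and 2373, 2618 and 2382 in PGRN KO M2 against 4546, 3635 and 3640.4 in WT M2. No library of the 2 groups overlapped, and the log2 fold changes were -0.65 ± 0.10 and -0.67 ± 0.10.

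The minor isoform genes Eno2 (the neuronal enolase) and Aldoc (aldolase C) showed large ratios at low levels. Eno2 had 239, 244 and 231 normalized counts in PGRN KO M1 against 152, 128 and 122 in WT M1, and 255, 269 and 277 in PGRN KO M2 against 81.2, 123 and 119.6 in WT M2. PGRN KO libraries were above all WT libraries, by 0.83 ± 0.20 (adjusted p = 0.00504) in M1 and 1.32 ± 0.20 (adjusted p = 0.000176) in M2. Aldoc had 88.0, 59.8 and 104 in PGRN KO M1 against 40.1, 48.1 and 45.7 in WT M1, and 221, 171 and 196 in PGRN KO M2 against 62.5, 53.2 and 58.8 in WT M2. Its M2 fold of 3.32 was the largest rise among the 32 genes in this comparison (1.73 ± 0.19, adjusted p = 1.14e-05). Its M1 call (0.86 ± 0.19, adjusted p = 0.00330) did not hold once the libraries were thinned to the depth of the shallowest, where it stood at 0.29 ± 0.29 (adjusted p = 0.569). Both genes lie far below Eno1 and Aldoa per kb, which behaved differently: Eno1 was lower in PGRN KO M2 (-0.47 ± 0.16, adjusted p = 0.0494) and Aldoa stood at 0.07 ± 0.07 in M1 and 0.15 ± 0.07 in M2.

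At the exit of the pathway, Slc16a3 was lower in PGRN KO cells. Its values were 1948, 2079 and 1918 normalized counts in PGRN KO M1 against 3162, 3149 and 2798 in WT M1, and 1029, 1009.7 and 959.5 in PGRN KO M2 against 1821, 1577 and 1513 in WT M2. The libraries did not overlap, and the log2 fold changes were -0.61 ± 0.11 and -0.71 ± 0.11. Ldha did not pass, at -0.10 ± 0.09 in M1 and -0.13 ± 0.09 in M2. Pgk1, which makes the first ATP of the pathway, fell in M1 (-0.68 ± 0.12, adjusted p = 0.000588). With copies of at least 98% identity to its transcript added to it, the Pgk1 difference shrank to -0.28 ± 0.07 (adjusted p = 0.0109). Those copies took between 7.79% and 40.1% of the summed count of a library. Pdk1 fell in M1 (-0.52 ± 0.09, adjusted p = 0.000732) and stood at -0.05 ± 0.09 in M2.

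Among the HIF1 genes, Hif1a stood at -0.12 ± 0.19 in M1 and 0.10 ± 0.19 in M2 in PGRN KO over WT cells, and neither passed. With the stromal sum as a covariate it passed as higher in both, at 0.52 ± 0.18 (adjusted p = 0.0426) in M1 and 0.79 ± 0.19 (adjusted p = 0.00712) in M2. The target genes Bnip3, P4ha2 and Vegfa fell in both polarizations. Bnip3 had 1076, 1243 and 1082 normalized counts in PGRN KO M1 against 2555, 2303 and 2149 in WT M1, and 510.0, 580.0 and 586 in PGRN KO M2 against 1281, 888 and 1042 in WT M2. P4ha2 had 2046, 1898 and 2102 in PGRN KO M1 against 4174, 4154 and 3621 in WT M1, and 1065, 1154 and 1168 in PGRN KO M2 against 2471, 2464 and 2066 in WT M2. In both polarizations the highest PGRN KO library was below the lowest WT library for either gene. The log2 fold changes of Bnip3 were -1.04 ± 0.13 (adjusted p = 3.86e-05) in M1 and -0.92 ± 0.13 (adjusted p = 0.000148) in M2, and those of P4ha2 were -0.98 ± 0.12 (adjusted p = 2.30e-05) and -1.04 ± 0.12 (adjusted p = 1.65e-05). Egln1, the main HIF1 prolyl hydroxylase and itself a HIF1 target, fell by 0.49 ± 0.07 in M1 and by 0.28 ± 0.07 in M2. Exons of Bnip3 share 504 bases with those of its antisense gene Gm45507, and the sources used here do not give the strand setting of the counting.

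The libraries of PGRN KO cells also had the lowest summed stromal markers, with no overlap with WT libraries in M1 or in M2. Genotype and stromal content can therefore not be told apart here. P4ha1 and P4ha2 serve collagen synthesis, and which cells their reads came from was not tested. With the stromal sum as a covariate, 11 of the 15 calls in M1 and 11 of the 15 in M2 remained. Bnip3 then stood at -1.08 ± 0.20 (adjusted p = 0.00176) in M1 and -0.96 ± 0.21 (adjusted p = 0.00424) in M2, P4ha2 at -0.83 ± 0.17 (adjusted p = 0.00289) and -0.88 ± 0.18 (adjusted p = 0.00269), Pfkl at -0.77 ± 0.14 (adjusted p = 0.00149) and -0.80 ± 0.14 (adjusted p = 0.00146), and Hk3 at 0.85 ± 0.14 (adjusted p = 0.000974) and 0.66 ± 0.15 (adjusted p = 0.00511). Vegfa stood at -0.54 ± 0.16 (adjusted p = 0.0211) in M1 and at -0.47 ± 0.17 (adjusted p = 0.0542) in M2, where it no longer passed. Pfkfb4 lost its call in both polarizations, Aldoc, Eno2 and Pdk1 lost theirs in M1, and Egln1 and P4ha1 in M2. Besides Hif1a, Eno1 gained a call as lower in M1, at -0.74 ± 0.22 (adjusted p = 0.0213), and Ldha as lower in M2, at -0.33 ± 0.11 (adjusted p = 0.0447). Leaving out 1 library at a time kept the count between 14 and 17 in M1 and between 10 and 16 in M2.

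The promoter windows of Bnip3, P4ha2 and Hk3 are printed because Bnip3 and P4ha2 were the deepest falls and Hk3 the largest rise of PGRN KO M1 cells among these genes. They are RefSeq sequences of GRCm38.p6, 5′ to 3′ on the strand of the gene, with 250 bases before and 50 after the annotated start. They lie at chr7:138909457-138909756 (minus strand), chr11:54100674-54100973 (plus strand) and chr13:55021336-55021635 (minus strand). Capitals mark the letters ACGTG and GCGTG, the core of the sequence that HIF1 binds, and their reverse complements CACGT and CACGC.
Bnip3: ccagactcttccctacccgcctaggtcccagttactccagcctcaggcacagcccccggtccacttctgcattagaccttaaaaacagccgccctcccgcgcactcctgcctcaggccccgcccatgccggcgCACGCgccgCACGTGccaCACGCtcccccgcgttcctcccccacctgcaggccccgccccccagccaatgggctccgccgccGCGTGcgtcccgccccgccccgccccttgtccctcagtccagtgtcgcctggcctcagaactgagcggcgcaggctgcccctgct
P4ha2: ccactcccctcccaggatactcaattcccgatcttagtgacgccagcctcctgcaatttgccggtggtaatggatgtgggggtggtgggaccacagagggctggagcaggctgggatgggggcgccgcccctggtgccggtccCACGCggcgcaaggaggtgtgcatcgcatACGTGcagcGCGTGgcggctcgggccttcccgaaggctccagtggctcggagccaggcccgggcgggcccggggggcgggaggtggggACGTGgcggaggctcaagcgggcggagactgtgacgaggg
Hk3: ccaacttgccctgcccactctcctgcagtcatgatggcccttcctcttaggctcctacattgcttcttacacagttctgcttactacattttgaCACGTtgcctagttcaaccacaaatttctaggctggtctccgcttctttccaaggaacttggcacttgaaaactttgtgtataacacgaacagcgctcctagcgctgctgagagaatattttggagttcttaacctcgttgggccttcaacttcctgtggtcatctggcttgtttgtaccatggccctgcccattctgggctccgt

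Of the 32 genes, 30 had at least 1 window in that table, 44 windows in all. ACGTG on either strand was found in 73.3% of these 30 genes, beside 21.8% of all 27025 genes with a window, and GCGTG in 63.3% beside 35.2%. Per window, ACGTG was in 56.8% of the 44 beside 19.6% of all, and GCGTG in 54.55% beside 32.4%. The genes were chosen in part as HIF1 targets, so a larger share with these motifs is not an independent result. In the Bnip3 window a single run, CACGTG, holds ACGTG and CACGT in overlap. Windows of these genes also held more CG dinucleotides, with a median of 20 beside 7 over all 32851 windows, and both motifs contain that dinucleotide. The motif was found in windows of genes that fell in PGRN KO cells and of genes that rose, Hk3 among them. These matches describe the letters of the windows and not binding.

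In 14-3-3ε KO cells compared with WT cells, most genes that passed were higher, and 12 passed in M1 and 2 in M2. In M1, 10 genes rose (Slc2a1, Hk1, Hk2, Pfkp, Tpi1, Gapdh, Slc16a3, Pdk1, Hif1a and Egln1) and 2 fell (Eno1 and Eno2), beside 21.3% of all genes past the threshold, 12% of all genes higher and 9.31% lower. In M2, Slc16a3 rose and Eno1 fell, and the other 30 genes did not pass, beside 6.69% of all genes, with 3.32% higher and 3.37% lower. The median log2 fold change was 0.19 in M1 and 0.02 in M2, beside 0.07 and 0.00 over all genes. Scaling by library totals moved the median of all genes to 0.13 and 0.11, with 71.0% of all calls as rises in M1 and 79.1% in M2, against 56.2% and 49.7% with the deposited scaling. The 32 genes then gave 10 rises and 2 falls in M1 and 4 and 1 in M2.

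Slc2a1 had 2376, 2698 and 2773 normalized counts in 14-3-3ε KO M1 against 1744, 1913 and 1698 in WT M1, and 1600.1, 1657 and 1698 in 14-3-3ε KO M2 against 1642, 1661 and 1772 in WT M2. In M1 all knockout libraries lay above all WT libraries (0.55 ± 0.08, adjusted p = 0.000359), whereas in M2 the log2 fold change was -0.03 ± 0.08. Hif1a had 4550.1, 5483 and 5503 in 14-3-3ε KO M1 against 1899.6, 4156 and 3365 in WT M1, a log2 fold change of 0.79 ± 0.19 (adjusted p = 0.0106). All knockout libraries lay above all WT libraries, of which replicate 1 was the lowest. Gapdh and Tpi1, enzymes of the triose steps, rose by 0.43 ± 0.08 and 0.23 ± 0.07 in M1. Gapdh has 36 copies of at least 98% identity in the deposited table, and summed with them it stood at 0.34 ± 0.07 (adjusted p = 0.00550).

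The M1 calls of this comparison rest on a spread estimated over all 6 groups. With the libraries of the 2 groups alone in the fit, none of the 32 genes passed by limma (0 at an adjusted p below 0.05, lowest 0.0509, and 14 at an unadjusted p below 0.05), while voom weights on recovered reads with all 18 libraries gave 11. Knockout and WT libraries did not overlap for 18 of the 32 genes in M1, the 12 that passed included, and for 13 in M2, beside 32.8% and 31.6% of all genes. No call of this comparison held under all alternatives, in either polarization. With the stromal sum as a covariate, 5 of the 12 M1 calls remained and Hif1a stood at 0.31 ± 0.16 (adjusted p = 0.304). Hk2, Tpi1, Eno1, Eno2, Slc16a3 and Pdk1 also lost their M1 calls, and Slc16a3 its M2 call. The count moved between 9 and 14 in M1 when 1 library was left out. In M2 it was 8 without replicate 1 and 4 without replicate 2 of WT M1, 1 without PGRN KO M1 replicate 1, WT M2 replicate 2 or 3, or any library of 14-3-3ε KO M2 or PGRN KO M2, and 2 without any other.

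The fall of Eno1 in 14-3-3ε KO cells, -0.68 ± 0.16 (adjusted p = 0.00877) in M1 and -0.91 ± 0.16 (adjusted p = 0.00333) in M2, was accompanied by counts on 2 near-identical copies of its transcript. These are Eno1b on chromosome 18, with 99.5% identity, and the processed pseudogene Gm4735 on chromosome 2, with 99.6% identity. Of the summed counts of the 3 genes, the 2 copies took between 33.1% and 65.6% in the 6 libraries of 14-3-3ε KO cells and at most 3.68% in the other 12 libraries. Eno1b alone took 28.1%, 49.6% and 58.2% in replicates 1, 2 and 3 of 14-3-3ε KO M1, and 25.8%, 42.6% and 52.3% in replicates 1, 2 and 3 of 14-3-3ε KO M2. Reads of such copies can be split between genes in different ways by the counting. Why the copies took a large share only in the 14-3-3ε KO libraries was not tested.

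**Figure D3:**
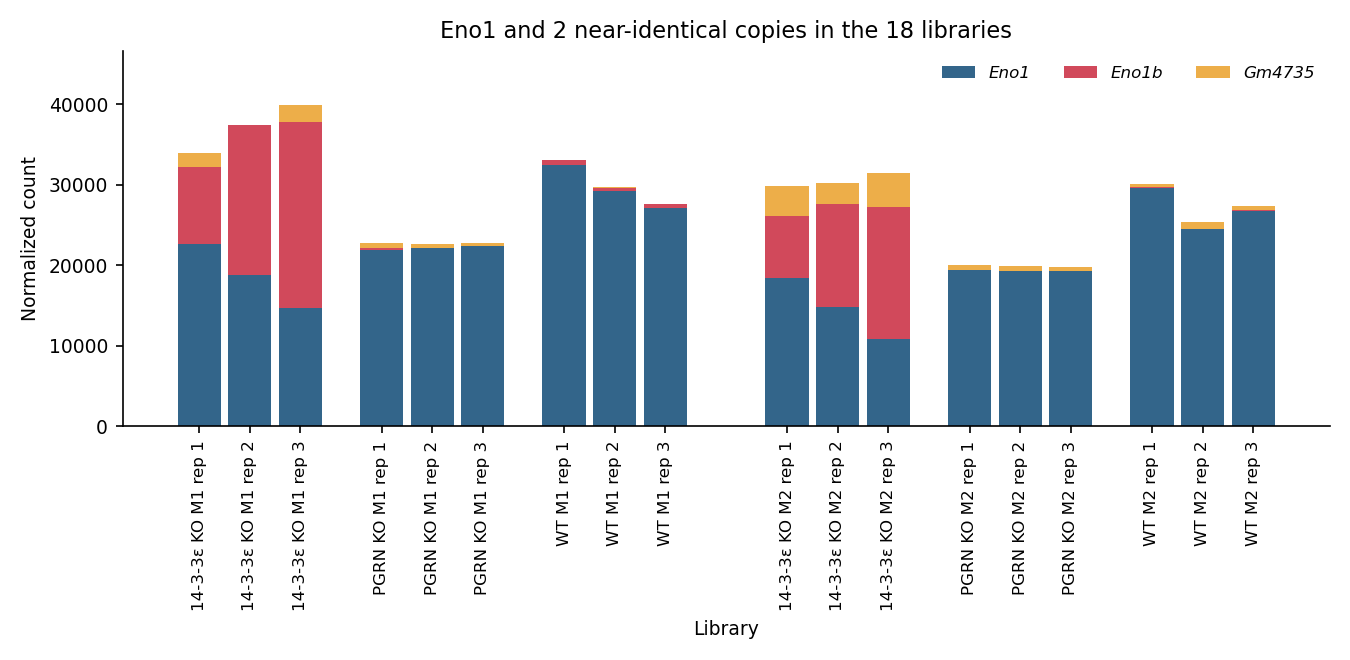
Normalized counts of Eno1 and of its near-identical copies Eno1b and Gm4735, stacked for each of the 18 libraries. The copies are visible in the 6 libraries of 14-3-3ε KO cells, at 33.1% to 65.6% of the stack, and are at most 3.68% of it in the other 12.

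With the copies added to Eno1, the sign turned round: the sum stood at 0.30 ± 0.08 (adjusted p = 0.0160) in 14-3-3ε KO over WT cells in M1 and at 0.15 ± 0.08 (adjusted p = 0.294) in M2. The summed enolase was lower in PGRN KO than in WT cells, with log2 fold changes of -0.40 ± 0.08 (adjusted p = 0.00155) in M1 and -0.47 ± 0.08 (adjusted p = 0.000627) in M2. The Eno1 fall in 14-3-3ε KO cells therefore holds for the reads assigned to Eno1 and not for those of the 3 genes together.

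Slc2a3, Gpi1, Pfkm, Aldoa, Pgam1, Pkm, Ldha, Egln3 and Ankrd37 passed against WT in neither knockout and neither polarization, as counted and without the covariate. Summed with near-identical copies, Pgam1 (0.32 ± 0.08, adjusted p = 0.00902) and Pgk1 (0.25 ± 0.07, adjusted p = 0.0260) passed as higher in 14-3-3ε KO over WT cells in M1. Gpi1, the glucose 6-phosphate isomerase, had mean counts of 10672 ± 56.8 in 14-3-3ε KO M1, 9504 ± 341 in PGRN KO M1 and 10104 ± 236 in WT M1. Ankrd37, a HIF1 target at low level, had 68.5 ± 11.3 in 14-3-3ε KO M1, 37.5 ± 2.10 in PGRN KO M1 and 57.1 ± 14.0 in WT M1. Its exons share 57 bases with those of Ufsp2, a more abundant gene on the opposite strand, so that its few reads may not all be its own.

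The 2 knockouts were also compared directly. In both polarizations, Hk1, Pfkl, Tpi1, Slc16a3, Egln1, Vegfa, Bnip3, P4ha1 and P4ha2 were higher in 14-3-3ε KO than in PGRN KO cells, and Hk3, Pfkfb3 and Eno2 were lower. Here too the share of all genes called in both was not counted. In M1, 20 of the 32 genes were higher and 4 lower, beside 25.0% of all genes past the threshold, 12.5% of all genes higher and 12.5% lower. In M2, 9 were higher and 8 lower, beside 18.2% of all genes, with 8.29% higher and 9.92% lower. The libraries of the knockouts did not overlap for 26 of the 32 genes in M1 and 22 in M2, beside 43.3% and 39.5% of all genes. Scaled by library totals, 24 were higher and 3 lower in M1, and 9 higher and 5 lower in M2, while the median of all genes moved to 0.19 and 0.14.

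The widest gap among HIF1 genes in M1 was that of Egln3, the hypoxia-induced prolyl hydroxylase. It had 463, 335 and 333 normalized counts in 14-3-3ε KO M1 against 119, 169 and 106 in PGRN KO M1 (1.53 ± 0.28, adjusted p = 0.000691). WT M1 libraries lay between the knockouts with 223, 251 and 174, and Egln3 passed against WT in neither of them. At under 100 reads in some of these libraries, the gene carries a large counting error. Bnip3 had 2239, 2903 and 3027 in 14-3-3ε KO M1 against 1076, 1243 and 1082 in PGRN KO M1 (1.25 ± 0.13, adjusted p = 3.29e-06), and 1124, 1356 and 1322 in 14-3-3ε KO M2 against 510.0, 580.0 and 586 in PGRN KO M2 (1.18 ± 0.13, adjusted p = 8.68e-06). No library of 1 knockout reached those of the other for Bnip3. Eno2 went the other way, with 76.9, 77.0 and 91.0 in 14-3-3ε KO M1 against 239, 244 and 231 in PGRN KO M1 (-1.54 ± 0.20, adjusted p = 1.91e-05).

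This was also the comparison in which stromal markers differed most: 8 of 11 were higher in 14-3-3ε KO than in PGRN KO cells in M1 and 7 of 11 in M2, and none was lower. With the stromal sum as a covariate, 9 genes passed in M1 and 7 in M2, against 24 and 17 without it. The stromal sums of the 2 knockouts did not overlap in either polarization, so the covariate and the genotype cannot be told apart here. Bnip3 kept its M1 call at 1.32 ± 0.29 (adjusted p = 0.0193), with a larger error than without the covariate. Hif1a, at 0.91 ± 0.19 in M1 without the covariate, stood at -0.21 ± 0.26 (adjusted p = 0.689) with it. Egln3 and Eno2 lost their M1 calls, at 1.13 ± 0.62 (adjusted p = 0.297) and -1.40 ± 0.42 (adjusted p = 0.0660). Of the 12 genes named as differing in both polarizations, Hk1, Vegfa and P4ha1 lost their calls in both, Hk3 and Eno2 in M1, and Tpi1 and Egln1 in M2. Summed with near-identical copies, Eno1 passed as higher in 14-3-3ε KO than in PGRN KO cells of both polarizations, with an M1 value of 0.70 ± 0.08, adjusted p = 6.56e-06, and an M2 value of 0.61 ± 0.08, adjusted p = 3.56e-05. Summed in the same way, Gpi1 passed as higher in M1 (0.20 ± 0.06, adjusted p = 0.0303) but not in M2, where its call as lower was lost (-0.16 ± 0.06, adjusted p = 0.112), and Pgam1 passed as lower in M2 (-0.27 ± 0.08, adjusted p = 0.0199).

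Whether a knockout effect differed between M1 and M2 was tested as an interaction. Slc2a1 and Pfkp passed for 14-3-3ε KO over WT cells, 2 of 32 and both higher in M1, beside 0.286% of all genes (0.141% higher and 0.145% lower in M1). Ndrg1 passed for PGRN KO over WT cells, 1 of 32 and lower in M1, beside 1.25% of all genes (0.469% and 0.783%). Pfkp had 1309.5, 1481 and 1396 normalized counts in 14-3-3ε KO M1 against 989.9, 1073 and 948 in WT M1, and 2171, 2368 and 2037 in 14-3-3ε KO M2 against 2389.5, 2336 and 2352 in WT M2. In M1 the knockout libraries were all higher, and in M2 the groups overlapped. The effect was thus larger in M1 by 0.58 ± 0.11 for Pfkp (adjusted p = 0.0315) and by 0.58 ± 0.11 for Slc2a1 (adjusted p = 0.0368). Ndrg1 had 331, 560.3 and 336 in PGRN KO M1 against 696, 703 and 741 in WT M1, and 837, 928 and 1004 in PGRN KO M2 against 721, 844 and 810.1 in WT M2. It was below WT in each PGRN KO library of M1 and overlapped WT in M2, a difference of -1.06 ± 0.22 (adjusted p = 0.0268). The Ndrg1 call was lost without any 1 of PGRN KO M1 replicates 1 and 3, PGRN KO M2 replicates 2 and 3, and WT M2 replicates 1 and 3. The Slc2a1 and Pfkp calls were both lost without any 1 of 14-3-3ε KO M1 replicates 2 and 3, PGRN KO M1 and M2 replicate 3, WT M1 replicate 3, and the 14-3-3ε KO M2 and WT M2 libraries, where the differences stayed between 0.53 and 0.64. Slc2a1 also lost its call without PGRN KO M2 replicate 1. Neither passed with the replicate block, with scaling by library totals, with reads thinned to the shallowest library or with voom weights, and none of the 3 genes passed with only the compared groups in the fit. All 3 passed with the stromal sum as a covariate.

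**Figure D4:**
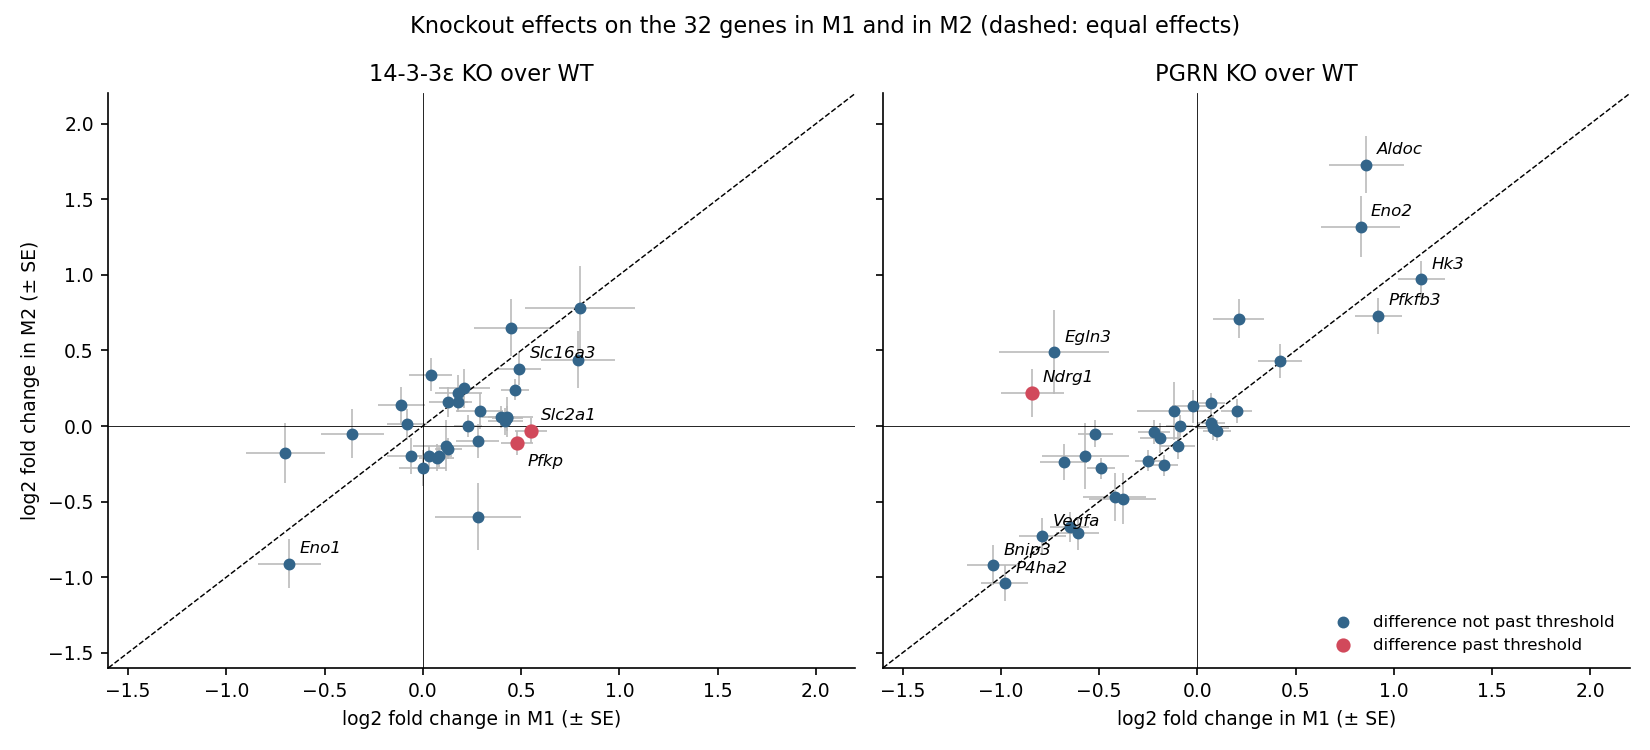
Log2 fold change of each of the 32 genes in M1 (horizontal) and in M2 (vertical), for 14-3-3ε KO over WT and for PGRN KO over WT, with genes past the interaction test in red. Slc2a1 and Pfkp lie to the right of the diagonal for 14-3-3ε KO and Ndrg1 far to the left of it for PGRN KO.

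Within several enzyme families the mean shares of isoforms differed between groups, given here as shares of the family's counts per kb of transcript (mean ± SD, n = 3 each). Of the hexokinase message, Hk3 made up 69.5% ± 0.788 in 14-3-3ε KO M1, 86.3% ± 0.745 in PGRN KO M1 and 75.7% ± 3.97 in WT M1. Its share in M2 was 64.7% ± 0.401 in 14-3-3ε KO, 81.0% ± 1.52 in PGRN KO and 71.7% ± 2.66 in WT cells. Hk3 was thus the main hexokinase in every group. Its share was highest in the PGRN KO group of either polarization, which also had the lowest stromal sums. Hk1 made up 23.9% ± 1.15 in 14-3-3ε KO M1, 10.4% ± 1.01 in PGRN KO M1 and 18.9% ± 3.10 in WT M1.

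Of the phosphofructokinase message, Pfkl made up 79.1% ± 0.0691 in 14-3-3ε KO M1, 72.0% ± 0.931 in PGRN KO M1 and 80.7% ± 2.68 in WT M1. In M2 it was 64.3% ± 1.60 in 14-3-3ε KO, 47.6% ± 2.88 in PGRN KO and 60.2% ± 2.42 in WT cells, and Pfkp took most of the difference, with 28.9% ± 1.99, 44.0% ± 2.89 and 32.7% ± 2.51 in the same order. In PGRN KO M2 the shares of Pfkl and Pfkp lay closest to each other. Pfkfb3 made up 81.3% ± 1.51 of the summed Pfkfb3 and Pfkfb4 message in 14-3-3ε KO M1 against 40.2% ± 2.77 in 14-3-3ε KO M2, 83.8% ± 1.12 in PGRN KO M1 against 49.4% ± 2.37 in PGRN KO M2, and 78.5% ± 2.57 in WT M1 against 44.2% ± 0.917 in WT M2. Of the summed P4ha1 and P4ha2 message, P4ha1 made up 49.1% ± 3.63 in 14-3-3ε KO M1, 62.8% ± 1.04 in PGRN KO M1 and 49.1% ± 1.91 in WT M1. In M2 it was 47.15% ± 0.331, 61.5% ± 0.652 and 48.2% ± 2.27 in the same order. Shares sum to the whole family, so that a rise of 1 isoform lowers the share of the others. No test was run on them, and the part of stromal content in the shares was not tested.

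**Figure D5:**
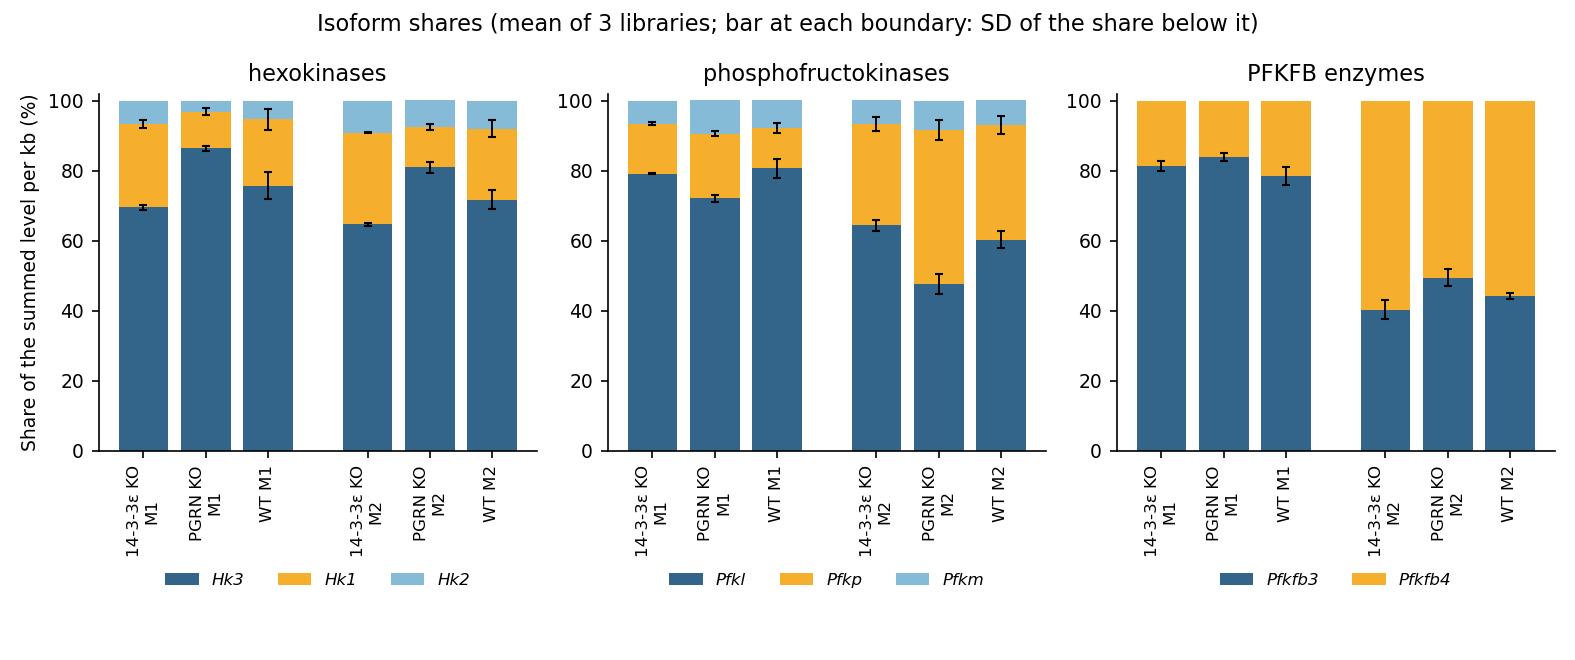
Shares of the hexokinase, phosphofructokinase and PFKFB message (percent of the family's normalized counts per kb, mean of 3 libraries, bars for the SD), stacked by isoform for the 6 groups. Pfkl and Pfkfb3 hold larger shares in the M1 groups than in the M2 groups, and Hk3 holds its largest shares in PGRN KO cells.

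Genes next to the pathway were counted from companion lists. Of 8 pentose phosphate genes, whose pathway makes NADPH and ribose from glucose 6-phosphate, 5 rose and none fell in PGRN KO over WT cells in M1, and 2 rose in M2. Beside these and the counts of the other lists stand the shares of all genes: 14.2% rose and 11.1% fell in M1, and 11.1% and 8.3% in M2. G6pdx, its first and rate-limiting enzyme, averaged 7276 ± 385 normalized counts in PGRN KO M1 against 3634 ± 564 in WT M1 (SD, n = 3 each), a log2 fold change of 1.01 ± 0.10 (adjusted p = 4.81e-06). In M2 it stood at 0.42 ± 0.10 (adjusted p = 0.00787). Taldo1, the transaldolase, rose by 0.73 ± 0.11 in M1 and 0.36 ± 0.11 in M2. In 14-3-3ε KO over WT cells, G6pdx rose in M1 (0.54 ± 0.10, adjusted p = 0.00247) and Pgls fell (-0.52 ± 0.15, adjusted p = 0.0220), while none of the 8 passed in M2, beside 21.3% of all genes past the threshold in M1 and 6.69% in M2. Between M1 and M2, 3 rose and 1 fell in 14-3-3ε KO, 3 rose and 1 fell in PGRN KO, and 2 rose and 3 fell in WT cells, G6pdx being higher in M1 in all 3, beside 30.0%, 37.5% and 38.9% of all genes past the threshold. The median log2 fold change of the 8 genes in PGRN KO over WT cells was 0.37 in M1 and 0.20 in M2.

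Of 26 other HIF1 targets and regulators of the HIF pathway, 3 rose and 11 fell in PGRN KO over WT cells in M1, with a median log2 fold change of -0.30, and 5 rose and 6 fell in M2, with a median of -0.14, beside 25.3% and 19.4% of all genes past the threshold. Fam162a, Ero1l (an oxidase of the endoplasmic reticulum) and Ak4 (a mitochondrial adenylate kinase) fell by 1.04 ± 0.15, 0.70 ± 0.10 and 0.94 ± 0.14 in M1 on the log2 scale. Bnip3l, the paralog of Bnip3, moved against it in M2, with 3241 ± 175 normalized counts in PGRN KO M2 against 1916 ± 96.2 in WT M2 (log2 fold change 0.76 ± 0.07, adjusted p = 1.68e-06). Bhlhe40, a transcriptional repressor, also rose in PGRN KO M2 (0.86 ± 0.09, adjusted p = 4.32e-06). In 14-3-3ε KO over WT cells, 5 rose and 3 fell in M1 and 1 rose and 2 fell in M2, beside 21.3% and 6.69% of all genes. Lox, a collagen cross-linking enzyme abundant in stromal cells, rose in both, by 0.84 ± 0.19 and 0.68 ± 0.19.

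Between M1 and M2, the same 26 genes gave 11 rises and 3 falls in 14-3-3ε KO, 9 and 7 in PGRN KO, and 13 and 4 in WT cells, beside 30.0%, 37.5% and 38.9% of all genes past the threshold. Hmox1, heme oxygenase 1, rose by 2.12 ± 0.14, 2.71 ± 0.14 and 2.12 ± 0.14, and Bhlhe40 fell, with -1.92 ± 0.09, -3.14 ± 0.09 and -2.04 ± 0.09 in the same order of genotypes. The PGRN KO effect on Bhlhe40 differed between M1 and M2 by -1.10 ± 0.12 (adjusted p = 0.000368), and that on Bnip3l by -0.45 ± 0.10 (adjusted p = 0.0311). For Bnip3 and P4ha2 the same difference did not pass, at -0.12 ± 0.19 (adjusted p = 0.850) and 0.06 ± 0.17 (adjusted p = 0.917).

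Of 13 genes for the entry of pyruvate into mitochondria, 1 rose and 6 fell in 14-3-3ε KO cells, 1 rose and 6 fell in PGRN KO cells, and 2 rose and 7 fell in WT cells in M1 over M2, with median log2 fold changes of -0.14, -0.15 and -0.30, beside 30.0%, 37.5% and 38.9% of all genes past the threshold. In WT cells Pdp1, a pyruvate dehydrogenase phosphatase, had 327 ± 68.8 normalized counts in M1 against 564 ± 46.6 in M2 (-0.81 ± 0.12, adjusted p = 5.35e-05). In PGRN KO over WT cells, 4 of the 13 rose and 2 fell in M1 (25.3% of all genes passed), Pdp1 among the rises (0.69 ± 0.12, adjusted p = 0.000722). In 14-3-3ε KO over WT cells, 1 rose and 2 fell in M1 (21.3% of all genes passed). Mpc1, a subunit of the mitochondrial pyruvate carrier, fell there (-0.50 ± 0.09, adjusted p = 0.00208) and rose in PGRN KO over WT cells in M1 (0.50 ± 0.09, adjusted p = 0.000773). Both of these comparisons use the same WT M1 libraries.

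Of 12 glycogen genes, 4 rose and 5 fell in M1 over M2 in 14-3-3ε KO, 4 rose and 6 fell in PGRN KO, and 3 rose and 7 fell in WT cells, beside the same 30.0%, 37.5% and 38.9% of all genes. In WT cells Pgm1 and Ugp2 had log2 fold changes of -0.68 ± 0.09 and -0.59 ± 0.08 (adjusted p = 7.02e-06 and 1.20e-05), while Pgm2 rose by 0.61 ± 0.08. In PGRN KO over WT cells, 3 of the 12 rose and 2 fell in M1 (25.3% of all genes passed), with Gyg, the primer of glycogen, at 0.78 ± 0.09 and Gys1, a glycogen synthase, at -0.69 ± 0.10. In 14-3-3ε KO over WT cells, 3 rose in M1 (21.3% of all genes passed) and none of the 12 passed in M2 (6.69%).

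Of 20 other glycolytic isoforms and side enzymes in the table, 18 were tested. Between M1 and M2, 3 rose and 4 fell in 14-3-3ε KO, 3 rose and 3 fell in PGRN KO, and 5 rose and 4 fell in WT cells, beside 30.0%, 37.5% and 38.9% of all genes. In WT cells the hexose transporter Slc2a6 rose by 2.49 ± 0.19 and Galm, an aldose mutarotase, fell by 1.43 ± 0.20 on the log2 scale. In PGRN KO over WT cells, 5 rose and 7 fell in M1 and 2 rose and 2 fell in M2, beside 25.3% and 19.4% of all genes. In 14-3-3ε KO over WT cells, 2 rose and 4 fell in M1 and 2 rose in M2, beside 21.3% and 6.69% of all genes.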

How the data were processed

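RNA was sequenced from 18 libraries of mouse bone marrow-derived macrophages. The deposited table holds log2 values, which the authors made as log2 of the DESeq2-normalized count plus 1. Per the submitters' processing notes the tools were STAR, RSEM 1.3.1 and DESeq2, and the build named there is GRCh38, although the gene IDs are mouse Ensembl IDs. No coordinate was taken from that build. Symbols, positions and transcript lengths (longest protein-coding transcript) came from GENCODE M21 on GRCm38, where 42425 of 43309 IDs matched.

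Dividing each library's values by their smallest step gave whole reads for 100% of values, within 0.1 read. Differences were tested on the deposited scale by limma 3.58.1 (R 4.3.3, with its trend and robust options), whose pseudocount of 1 understates changes of low genes. All 18 libraries entered 1 fit with 6 group means. Genes needed at least 1 normalized count in at least 3 libraries, which left 21336. Adjusted p-values are Benjamini-Hochberg over all these genes, per comparison, with a threshold of 0.05, for 11 two-sided comparisons. Data were simulated at the depths of these libraries, with 1 fixed spread for all genes and groups and changed genes drawn from the well-counted ones. There, 97% to 100% of genes changed 2-fold were recovered in the 9 comparisons between groups. For the differences of an effect between M1 and M2 it was 87% (PGRN KO) and 92% (14-3-3ε KO). Of the unchanged genes, between 0 and 85 were called. The spread of the real libraries differs between genes and groups, so these rates need not hold for the deposited data. Near-identical copies were found with BLAST+ 2.17.0, and figures drawn with matplotlib 3.10.9.

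All 32 genes are named, with up to 3 genes of the smallest adjusted p in each companion list. The members and lists were chosen with earlier results of these data known. Same-numbered M1 and M2 libraries of 14-3-3ε KO deviated together from their group means (correlations 0.518, 0.367 and 0.415), which pairs them from the data and not from the labels. In the other genotypes not all 3 numbers did so. Same-numbered M1 and M2 libraries 1, 2 and 3 correlated at 0.380, -0.145 and -0.417 in WT cells. In PGRN KO cells the values were 0.127, 0.344 and -0.0590. Alternatives were other pseudocounts, filters, scalings, depths and sets of libraries, a replicate block, voom weights, summed copies and a stromal covariate.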

Additional observations from a re-analysis of the deposited data

Results flagged for a closer look

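For 3 genes, the effect of a knockout differed between M1 and M2 cells by the interaction test in limma. Ndrg1 averaged 409 ± 131 normalized counts in PGRN KO M1 against 713 ± 24.1 in WT M1, and 923 ± 83.8 in PGRN KO M2 against 792 ± 63.3 in WT M2 (SD, n = 3 each), a difference between the log2 fold changes of -1.06 ± 0.22 (adjusted p = 0.0268). Over the alternatives, its adjusted p lay between 0.000638 and 0.0868.

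Slc2a1 averaged 2616 ± 211 normalized counts in 14-3-3ε KO M1 against 1785 ± 113 in WT M1, and 1652 ± 49.2 in 14-3-3ε KO M2 against 1691 ± 70.2 in WT M2, a difference of 0.58 ± 0.11 (adjusted p = 0.0368, between 0.0189 and 0.147 over the alternatives). Pfkp averaged 1395 ± 85.6 in 14-3-3ε KO M1 against 1004 ± 63.6 in WT M1, and 2192 ± 166 in 14-3-3ε KO M2 against 2359 ± 27.4 in WT M2, a difference of 0.58 ± 0.11 (adjusted p = 0.0315, between 0.0151 and 0.147 over the alternatives).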

How the results depend on the processing

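Over 31 alternatives, 4558 values were recomputed for the 151 calls of the 32 genes: 4245 kept the call, 308 lost it and 5 changed direction, and 82 calls held throughout. The direction changed for Eno1 in 14-3-3ε KO over WT with near-identical copies summed (0.30 in M1, 0.15 in M2), for Gpi1 in M1 over M2 of 14-3-3ε KO cells with library totals (-0.02), and, with the stromal covariate, for Hif1a (-0.21, M1) and Pkm (0.08, M2) in 14-3-3ε KO over PGRN KO cells. The count for 14-3-3ε KO over WT in M1 (12) was 0 with only the compared groups in the fit and 5 with the covariate. In M2 (2) it was 1 with no filter, with summed copies, with the covariate, without the 2 rRNA-rich libraries or with the replicate block, 4 with a filter of 50 normalized counts, and 5 with library totals or voom weights. The covariate gave 9 (M1) and 7 (M2) for 14-3-3ε KO over PGRN KO. The count for the difference between the PGRN KO effects in M1 and M2 (1) was 0 with only the compared groups or without the rRNA-rich libraries, and 2 when thinned or with the covariate. For the 14-3-3ε KO effects (2) it was 0 with only the compared groups, the replicate block, library totals, thinning or voom weights, by limma, where 8 to 13 genes had an unadjusted p below 0.05. Leaving out 1 library gave 1 to 8 for 14-3-3ε KO over WT in M2, 0 to 2 for the PGRN KO effect difference and 0 to 2 for that of 14-3-3ε KO. For these results the cause was not tested.

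A block on the replicate number over all groups lost 6 of the 151 calls. Same-numbered libraries correlated at a median of -0.0344, and 4 of 18 libraries correlated best with their own number. A block within 14-3-3ε KO gave 27 calls in M1 over M2, against 26 without it, and kept all 28 calls it was run for, those of M1 over M2 in 14-3-3ε KO and of the 14-3-3ε KO effect difference. The planned edgeR test was not run, since the deposited values are log2, and voom weights on recovered reads, the summed copies, the covariate and the block within 14-3-3ε KO were chosen after seeing the data. Depth limits genes such as Aldoc, at 9 reads in its lowest library.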

Other observations

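Markers of cells other than macrophages and stroma were low but not absent. The 8 neutrophil markers summed to 1498 to 4257 normalized counts in 14-3-3ε KO, 899.8 to 3645 in PGRN KO and 2327 to 7719 in WT libraries, over both polarizations. The 5 B cell markers, most of it Ighm, summed to 1349 to 3923 in 14-3-3ε KO, 358 to 1432 in PGRN KO and 1014 to 3768 in WT libraries. The 4 mast cell and basophil markers summed to 207 to 582 in 14-3-3ε KO, 158 to 382 in PGRN KO and 152 to 313 in WT libraries, and the 4 dendritic markers to at most 153, 144 and 103 in the same order. T and NK markers reached at most 84.7 and erythroid markers at most 98.1 in any library. The part of these cells in the results was not tested.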
